A study of Mus musculus with 2 samples.

Results

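Collagen chains were followed in mouse skin fibroblasts given IL-17A or vehicle, as every gene whose symbol has the form of a collagen alpha chain. The count table held 39 such genes among its 19674 rows, and 31 of them reached 50 counts summed over both libraries. These 31 are called measured here, as are all 13534 genes that reached this minimum. By the structure that each chain builds, the measured chains comprised 10 fibrillar, 6 network, 5 FACIT (fibril-associated), 5 beaded and 2 transmembrane chains. The other 3, the anchoring fibril chain Col7a1 and the multiplexins Col15a1 and Col18a1, belong to none of these groups and were kept as a sixth.

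One culture received IL-17A, an inflammatory cytokine made mainly by T cells, and the other received vehicle. Both were wild-type fibroblasts of the line MDFB from skin, and each group held 1 library. The labels gave no dose, no duration and no origin of the line beyond skin. Total counts were 23559416 for IL-17A and 24427027 for vehicle. Since RNA was measured in bulk, fewer cells that express a chain and less RNA per cell cannot be told apart. No replicate was measured, so no difference below has a test or a p-value. Each fold is the ratio of scaled counts in these libraries, and its 95% interval is the exact Clopper-Pearson interval for counting error. Reads copied by PCR carried no molecular identifiers, so the intervals treat copies as separate molecules. They also leave out variation between cultures and the choice of scaling.

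Collagens are extracellular proteins in which alpha chains, rich in glycine and proline, wind around each other into a stiff helix. Fibroblasts are the main source of the fibrillar types I, III and V of the dermis, which give skin its tensile strength. Other families coat these fibrils, build the sheet of the basement membrane, form beaded microfilaments around cells, or stay anchored in the plasma membrane. Most types are assembled from several different chains, so that the transcripts of partner chains are of interest side by side.

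Collagen transcripts took a smaller part of the IL-17A library. All 39 collagen genes together held 1161430 counts with IL-17A, 4.93% of the library (95% Wilson interval 4.92 to 4.94), against 1818112 counts with vehicle, 7.44% (7.43 to 7.45). Levels are given in CPM, in which each count is divided by the TMM-scaled size of its library. The summed level was 50473 with IL-17A and 72698 with vehicle, 1.44-fold lower (95% counting interval 1.44 to 1.44). Without Col1a1 and Col1a2 the sum was 23527 CPM with IL-17A and 32868 CPM with vehicle, 1.40-fold lower. The net difference of -22225 CPM consisted of -23170 CPM over 25 genes with a lower level and 945 CPM over 14 with a higher one. Col1a1, Col1a2, Col3a1, Col5a1 and Col6a3 made up 92.3% of the net difference.

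Chain by chain the family went both ways. With a limit of 2-fold, 7 of the 31 measured chains (22.6%) were higher with IL-17A and 7 (22.6%) were lower, while 17 lay within 2-fold. Among all measured genes, 5.19% were higher and 3.69% lower by the same rule. The higher chains were Col22a1, Col24a1, Col25a1, Col18a1, Col5a3, Col6a4 and Col23a1. The lower chains were Col28a1, Col15a1, Col8a2, Col6a3, Col8a1, Col9a2 and Col4a5. At 1.5-fold, 8 chains were higher and 13 lower, beside 10.1% and 8.25% of all measured genes, and at 3-fold 2 were higher and 4 lower, beside 2.51% and 1.62%. The median log2 ratio over the chains was -0.46, beside 0.00 over all measured genes, and 20 of 31 chains (64.5%) stood below 0, against 49.7% of all measured genes. Nearest to the limit were Col23a1, just past it at 2.08-fold higher, and Col4a6 and Col7a1, just short of it at 1.99-fold lower and 1.91-fold higher.

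**Figure D1:**
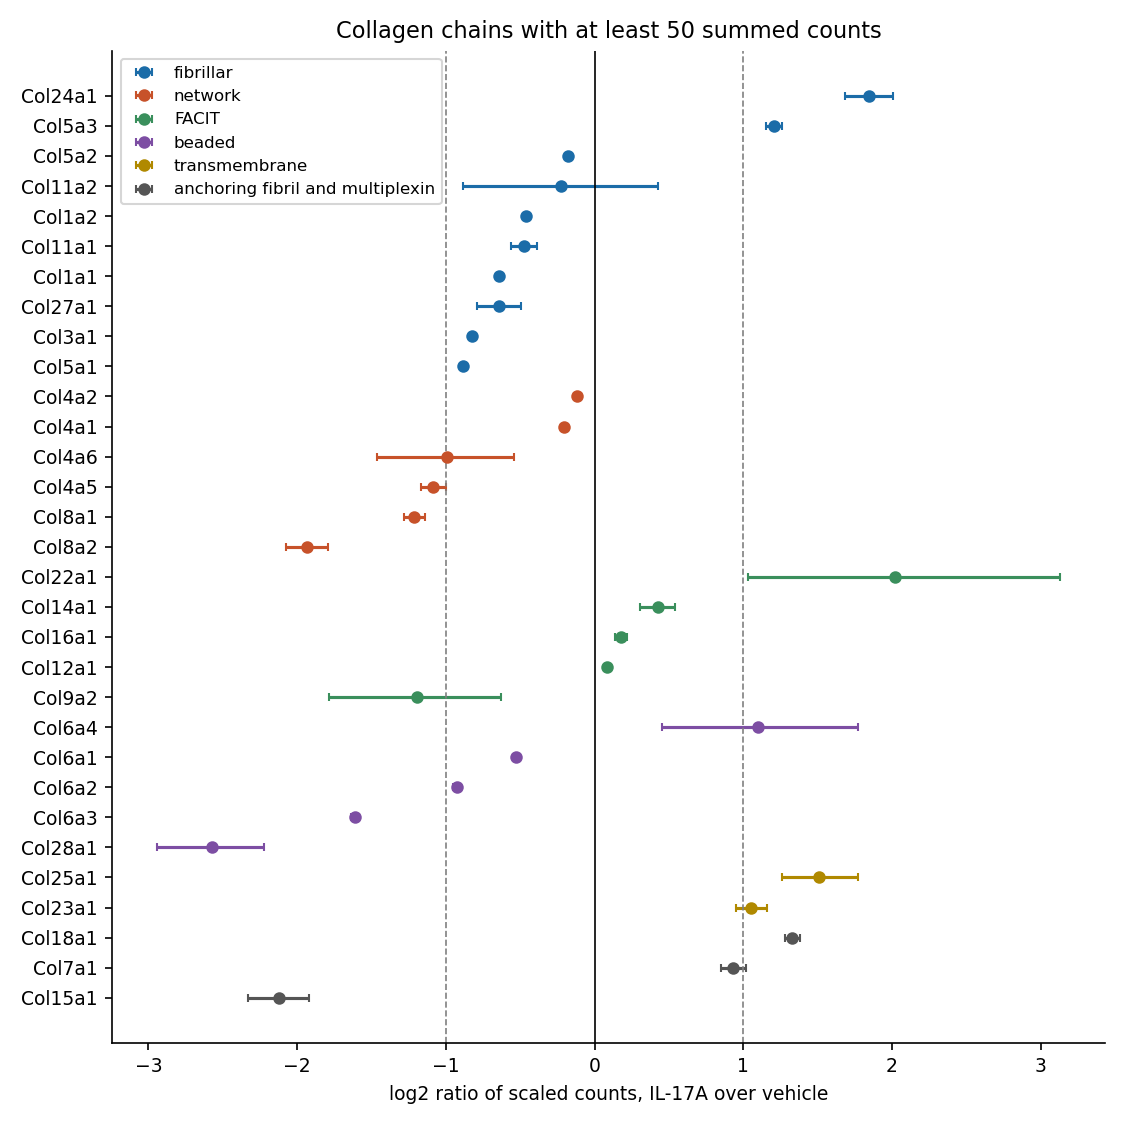
Log2 ratio of scaled counts, IL-17A over vehicle, for the 31 measured collagen chains, ordered and coloured by structural group. Bars are 95% counting intervals from 1 library per group, dashed lines mark 2-fold, and the points run from -2.57 for Col28a1 to 2.02 for Col22a1.

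Levels of different genes were compared as CPM per kilobase of the principal transcript. Col1a1 stood first at 2555 per kb with IL-17A and 3984 per kb with vehicle, followed in both libraries by Col1a2, Col3a1 and Col5a2. The fifth place was held by Col12a1 in the IL-17A library and by Col5a1 in the vehicle library. Of the 13 chains at 50 per kb or more as the mean of both libraries, a split chosen after the values were seen, 10 had a log2 ratio below 0, 1 (Col18a1) was called higher and 1 (Col6a3) lower. Of the other 18 chains, 10 had a log2 ratio below 0, 6 were called higher and 6 lower. The shares over all measured genes were 49.7% below 0, 5.19% higher and 3.69% lower. Over the 31 chains, which share both libraries, the Spearman correlation of the log2 ratio with this mean level was -0.12, and with transcript length 0.25.

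**Figure D2:**
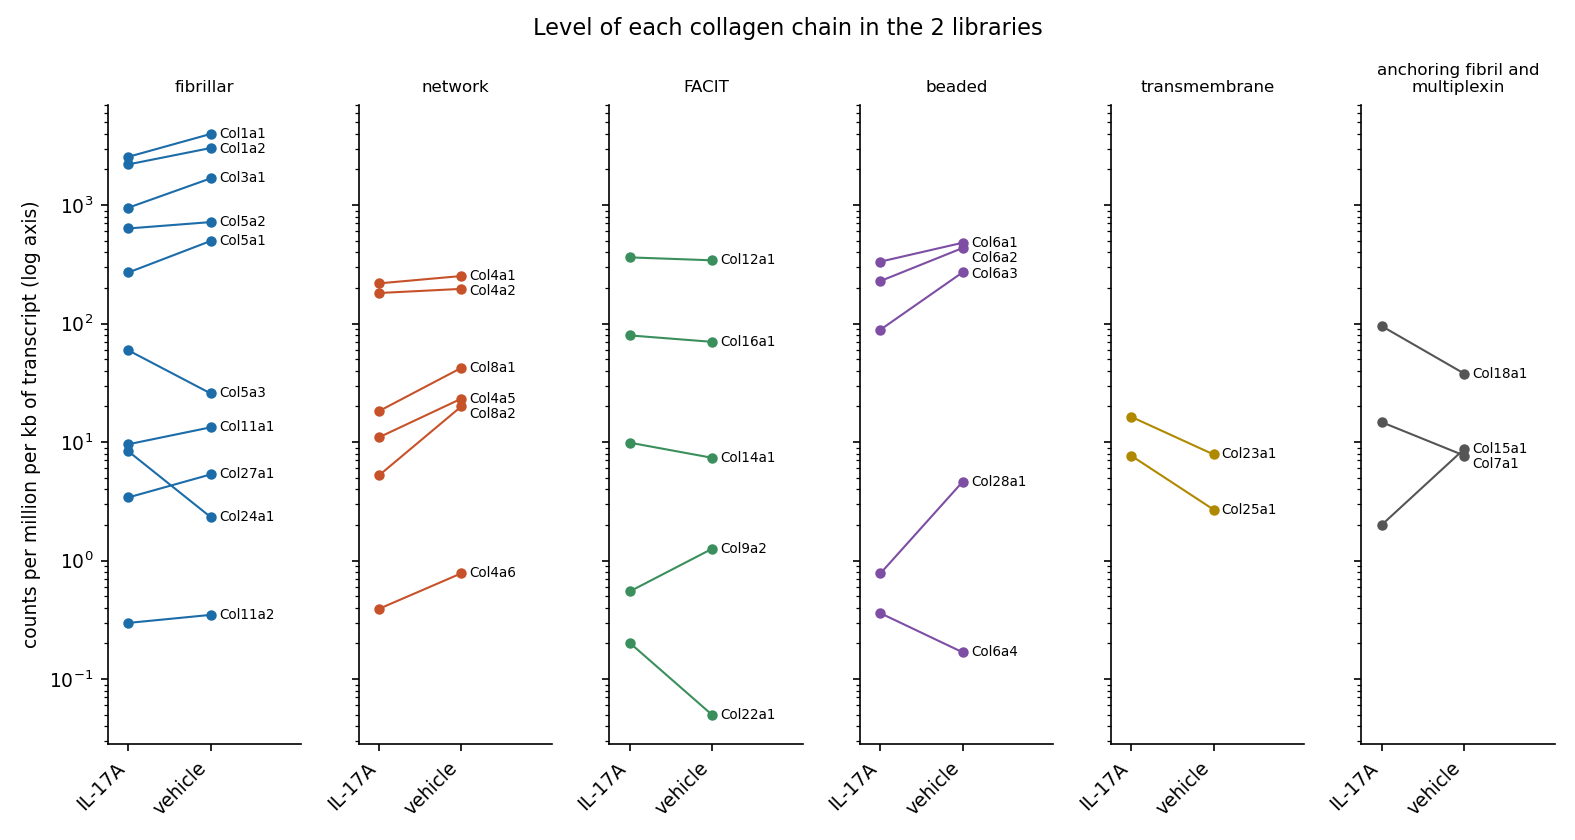
Level of each measured chain in CPM per kilobase of transcript (log axis), IL-17A at the left and vehicle at the right of each panel, 1 panel per structural group, 1 library per point. Lines join the same chain: Col1a1 lies at 2555 with IL-17A and 3984 with vehicle, and Col18a1 at 95.1 and 37.8.

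**Figure D3:**
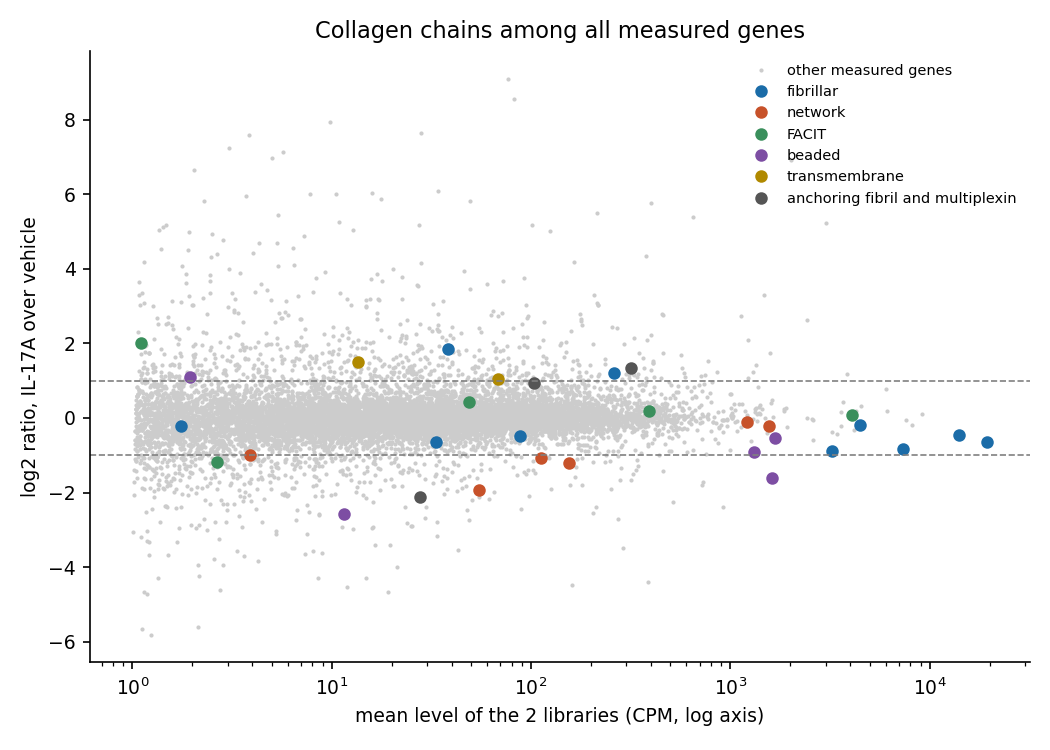
Log2 ratio, IL-17A over vehicle, against the mean level in CPM (log axis) for all 13534 measured genes in grey and the 31 collagen chains in colour, with dashed lines at 2-fold. Of the abundant chains, Col1a1, Col1a2, Col3a1 and Col5a1 lie between -0.88 and -0.46, Col5a2 at -0.18 and Col12a1 at 0.08. Col6a3 and Col18a1 have the highest levels among the chains past the limits.

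Among the fibrillar chains the abundant members were lower by less than 2-fold, and a pair of minor members was higher. Col1a1, the main chain of type I collagen, had 348690 counts with IL-17A and 590781 with vehicle, a log2 ratio of -0.64. Its partner Col1a2 had 271369 counts with IL-17A and 405336 with vehicle, a log2 ratio of -0.46. Col3a1, the chain of the thin type III fibrils, had 121712 counts with IL-17A and 233873 with vehicle and was 1.77-fold lower (95% counting interval 1.76 to 1.78). All of these lay below the vehicle level by less than 2-fold.

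Type V collagen, which starts fibrils and limits their width, was split. Col5a1 had 52219 counts with IL-17A and 104727 with vehicle and was 1.85-fold lower (95% counting interval 1.83 to 1.86). Col5a2 had 96794 counts with IL-17A and 119072 with vehicle and was 1.13-fold lower (1.12 to 1.14). Col5a3, a chain that replaces one of the others in some tissues, went the opposite way, with 8370 counts with IL-17A and 3937 with vehicle, 2.31-fold higher (2.22 to 2.40).

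Col24a1, a minor fibrillar chain known from bone, was the farthest above vehicle of this group, with 1373 counts with IL-17A and 416 with vehicle, 3.59-fold higher (95% counting interval 3.21 to 4.01). Col27a1, a related fibrillar chain known from cartilage, had 598 counts with IL-17A and 1016 with vehicle, a log2 ratio of -0.64. Of the type XI chains, cartilage relatives of type V, Col11a1 had 1692 counts with IL-17A and 2555 with vehicle, a log2 ratio of -0.47. Col11a2 had 37 counts with IL-17A and 47 with vehicle, and its interval of -0.89 to 0.43 on the log2 scale spanned 0. Over the 10 fibrillar chains, 2 were called higher and 0 lower, beside 5.19% and 3.69% of all measured genes. The fibrillar median log2 ratio was -0.47, and the fibrillar summed level was 39236 CPM with IL-17A and 58449 CPM with vehicle.

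The sequences before the start sites of the higher fibrillar pair are shown because these genes differed from the rest of their group. They run 5′ to 3′ on the gene's strand up to the RefSeq start in GRCm38.p6 (mm10), and capitals mark a CCAAT box (CCAAT) or a GC box (GGGCGG), each searched on both strands.
Col24a1, chr3:145292222-145292471, plus strand: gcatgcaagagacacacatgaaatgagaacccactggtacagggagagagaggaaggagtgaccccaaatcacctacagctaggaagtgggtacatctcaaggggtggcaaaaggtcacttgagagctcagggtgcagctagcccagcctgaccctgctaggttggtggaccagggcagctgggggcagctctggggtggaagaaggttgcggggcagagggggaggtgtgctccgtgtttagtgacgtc
Col5a3, chr9:20815068-20815317, minus strand: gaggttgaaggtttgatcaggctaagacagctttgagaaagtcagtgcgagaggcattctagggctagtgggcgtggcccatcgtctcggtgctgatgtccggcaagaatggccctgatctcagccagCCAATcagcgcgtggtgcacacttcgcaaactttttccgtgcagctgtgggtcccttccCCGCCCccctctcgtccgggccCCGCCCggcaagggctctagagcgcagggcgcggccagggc
The Col5a3 window held a CCAAT box and a pair of GC boxes, whereas the Col24a1 window matched none of the motifs searched.

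Against 49.7% of all measured genes, all 6 measured network chains stood below vehicle. Col4a1 and Col4a2, the common chains of the basement membrane, were close to it, with 33259 and 26887 counts with IL-17A against 41696 and 31666 with vehicle, log2 ratios of -0.21 and -0.12. Col4a5, which forms a different network in some basement membranes, had 1652 counts with IL-17A and 3804 with vehicle and was 2.12-fold lower (95% counting interval 1.999 to 2.25). Its partner Col4a6 had 60 counts with IL-17A and 130 with vehicle and was 1.99-fold lower (1.46 to 2.75).

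Type VIII collagen, a short-chain network collagen of vessel walls and of the membrane behind the cornea, was lower in both chains. Col8a2 had 523 counts with IL-17A and 2170 with vehicle, 3.82-fold lower (95% counting interval 3.47 to 4.21). Col8a1 had 2149 counts with IL-17A and 5407 with vehicle, 2.32-fold lower (2.20 to 2.43). The network group had 0 chains higher and 3 lower, beside 5.19% and 3.69% of all measured genes. The network median log2 ratio was -1.04, and the network summed level was 2804 CPM with IL-17A and 3394 CPM with vehicle. Col4a1 and Col4a2 held most of that sum, which was 1.21-fold lower.

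The FACIT chains, which sit on the surface of fibrils, did not share a direction. Col12a1, the most abundant of them, had 95874 counts with IL-17A and 98443 with vehicle, a log2 ratio of 0.08. Col16a1 had 9520 counts with IL-17A and 9134 with vehicle (0.18), and Col14a1 1292 and 1047 (0.42). Col22a1, known from junctions such as that of muscle and tendon, was at 41 counts with IL-17A and 11 with vehicle, 4.05-fold higher (95% counting interval 2.04 to 8.74). Col9a2, a cartilage chain, was at 37 and 92 counts, 2.29-fold lower (1.55 to 3.45). Both Col22a1 and Col9a2 had under 100 counts in each library, and the other 3 measured FACIT chains lay within 2-fold. The summed level was 4640 CPM with IL-17A and 4348 CPM with vehicle, and most of it came from Col12a1. These chains formed 9.19% of all collagen counts with IL-17A and 5.98% with vehicle. Their own counts were alike, 106782 with IL-17A and 108751 with vehicle, whereas all collagen counts were 1161430 and 1818112.

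Among the beaded chains, type VI collagen was lower in all of its abundant chains, by unequal amounts. Type VI forms microfilaments that link cells to the surrounding matrix. Col6a3, its longest chain, had 18410 counts with IL-17A and 61099 with vehicle, 3.05-fold lower (95% counting interval 3.004 to 3.10). Col6a2 had 20793 counts with IL-17A and 42949 with vehicle, 1.90-fold lower (1.87 to 1.93). Col6a1 had 31450 counts with IL-17A and 49368 with vehicle, 1.44-fold lower (1.42 to 1.46). By level per kb Col6a3 stood at place 12 among all collagen chains with IL-17A and at place 9 with vehicle.

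Col6a4, which can take the place of Col6a3 in mouse, was at 61 counts with IL-17A and 31 with vehicle, 2.14-fold higher (95% counting interval 1.37 to 3.41), and at 0.360 CPM per kb against 88.9 for Col6a3 in the IL-17A library. Col28a1, a related chain found mainly around nerves, had the lowest ratio of all measured chains. It was at 76 counts with IL-17A and 491 with vehicle, 5.94-fold lower (4.66 to 7.67). The summed beaded level was 3077 CPM with IL-17A and 6156 CPM with vehicle, 2.001-fold lower (1.98 to 2.02), and without Col6a3 its log2 ratio was -0.71.

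Both measured transmembrane chains were higher, beside 5.19% of all measured genes. Col23a1 had 2129 counts with IL-17A and 1114 with vehicle, 2.08-fold higher (95% counting interval 1.93 to 2.24). Under scaling by total counts its log2 ratio was 0.99, short of 2-fold. Col25a1, whose shed part was found in amyloid deposits of the brain, had 464 counts with IL-17A and 177 with vehicle, 2.85-fold higher (2.39 to 3.41). The other members, Col13a1 with 2 and 12 counts and Col17a1 with 15 in each library, were under the minimum.

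The multiplexins, basement-membrane collagens that carry sugar chains and release endostatin-like fragments, went opposite ways. Col18a1 had 10480 counts with IL-17A and 4535 with vehicle, 2.51-fold higher (95% counting interval 2.43 to 2.60). Col15a1 had 239 counts with IL-17A and 1131 with vehicle, 4.35-fold lower (3.78 to 5.03). Col7a1, which builds the fibrils that anchor the epidermis to the dermis, had 3131 counts with IL-17A and 1782 with vehicle, a log2 ratio of 0.93. The windows before the start sites of both multiplexins are shown for comparison, in the same form.
Col18a1, chr10:77166549-77166780, minus strand: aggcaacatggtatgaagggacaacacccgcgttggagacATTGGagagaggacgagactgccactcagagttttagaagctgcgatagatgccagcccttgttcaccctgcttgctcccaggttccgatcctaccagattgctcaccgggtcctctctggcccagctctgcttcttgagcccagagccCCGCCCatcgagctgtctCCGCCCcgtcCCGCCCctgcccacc
Col15a1, chr4:47207762-47208011, plus strand: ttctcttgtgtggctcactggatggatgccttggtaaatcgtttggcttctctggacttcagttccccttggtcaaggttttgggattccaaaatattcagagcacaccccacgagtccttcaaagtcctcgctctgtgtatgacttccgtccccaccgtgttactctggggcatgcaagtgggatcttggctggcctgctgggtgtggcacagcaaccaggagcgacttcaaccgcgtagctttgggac
The Col18a1 window, which belongs to the farther of its RefSeq starts and was trimmed where annotated exons begin, held a CCAAT box and several GC boxes, all on the opposite strand. None of the motifs searched matched in the Col15a1 window.

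**Figure D4:**
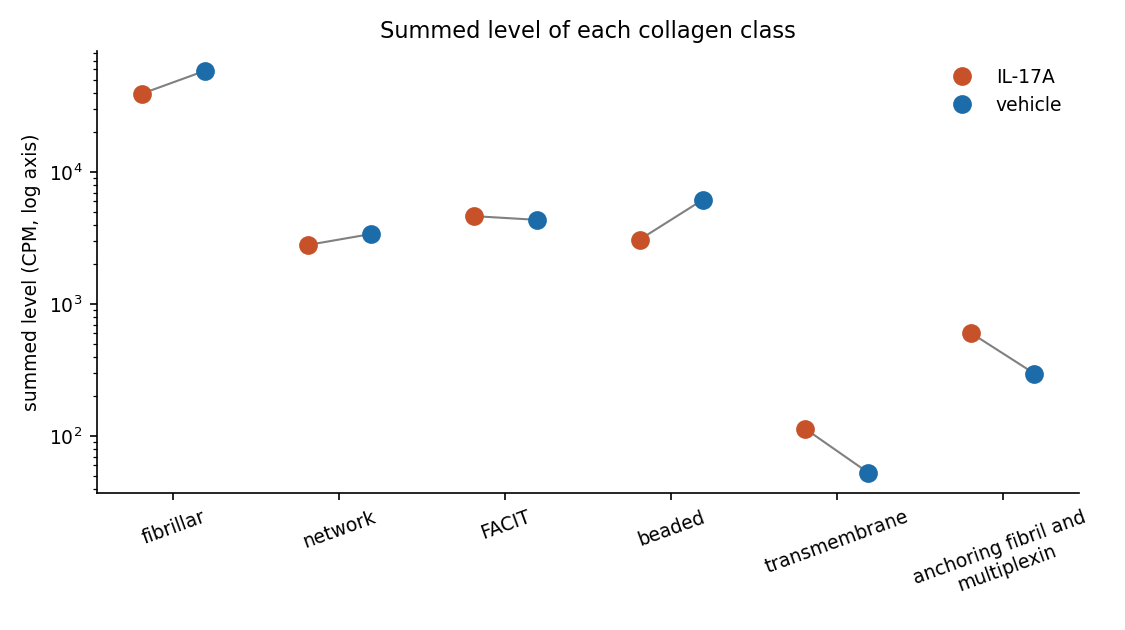
Summed level of each structural group of collagens in CPM (log axis), IL-17A at the left and vehicle at the right of each pair, 1 library per point. The fibrillar sum lies at 39236 with IL-17A and 58449 with vehicle, the beaded sum at 3077 and 6156, and the transmembrane sum at 113 and 52.7.

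The other genes under the minimum, beside Col13a1 and Col17a1, were Col6a5, Col6a6, Col9a3, Col20a1, Col4a3 and Col4a4. Nearest below the minimum were Col17a1 with 30 summed counts and Col20a1 with 30, and nearest above it Col22a1 with 52. Col20a1 had 16 counts with IL-17A and 14 with vehicle, Col6a6 11 and 18, Col9a3 2 and 10, and Col6a5 2 and 4. Col4a3 had 1 and 0 counts and Col4a4 0 and 2, at or under the floor of 3 counts that a count of 0 allows, which was 0.130 CPM with IL-17A and 0.120 with vehicle. The collagen genes Col2a1, Col9a1, Col10a1, Col19a1 and Col26a1 were not among the 39 collagen genes of the count table, so they could not be analysed here.

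Changes of one chain relative to its partner depend on neither scaling nor gene length, since both cancel. In type VI, the count ratio of Col6a3 to Col6a1 was 0.473 times that with vehicle (95% interval 0.463 to 0.483, from the log odds of the counts). Per kb, Col6a3 stood at 0.267 of Col6a1 with IL-17A and at 0.564 with vehicle. In type V, Col5a3 relative to Col5a1 was 4.26 times its vehicle value (4.10 to 4.43), and per kb it made up 0.220 of Col5a1 with IL-17A and 0.0516 with vehicle. Col5a2 relative to Col5a1 was 1.63 times its vehicle value (1.61 to 1.65).

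In type I the chains differed little in their change, with Col1a2 relative to Col1a1 at 1.13 times its vehicle value (95% interval 1.13 to 1.14). Per kb, Col1a2 stood at 0.863 of Col1a1 with IL-17A and 0.761 with vehicle, or at 0.411 and 0.362 when all annotated exons were merged to give gene length. In type IV, Col4a2 relative to Col4a1 was at 1.06 (1.04 to 1.09) and Col4a6 relative to Col4a5 at 1.06 (0.778 to 1.45), while Col4a5 relative to Col4a1 was at 0.544 (0.513 to 0.578). In type VIII, Col8a2 relative to Col8a1 was at 0.606 (0.544 to 0.675). Across types, Col18a1 relative to Col15a1 was at 10.9 (9.47 to 12.6) and Col24a1 relative to Col27a1 at 5.61 (4.83 to 6.51). Type XI, with Col11a2 relative to Col11a1 at 1.19 (0.769 to 1.84), and the Col4a6 pair were those whose interval held 1 among the pairs plotted.

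**Figure D5:**
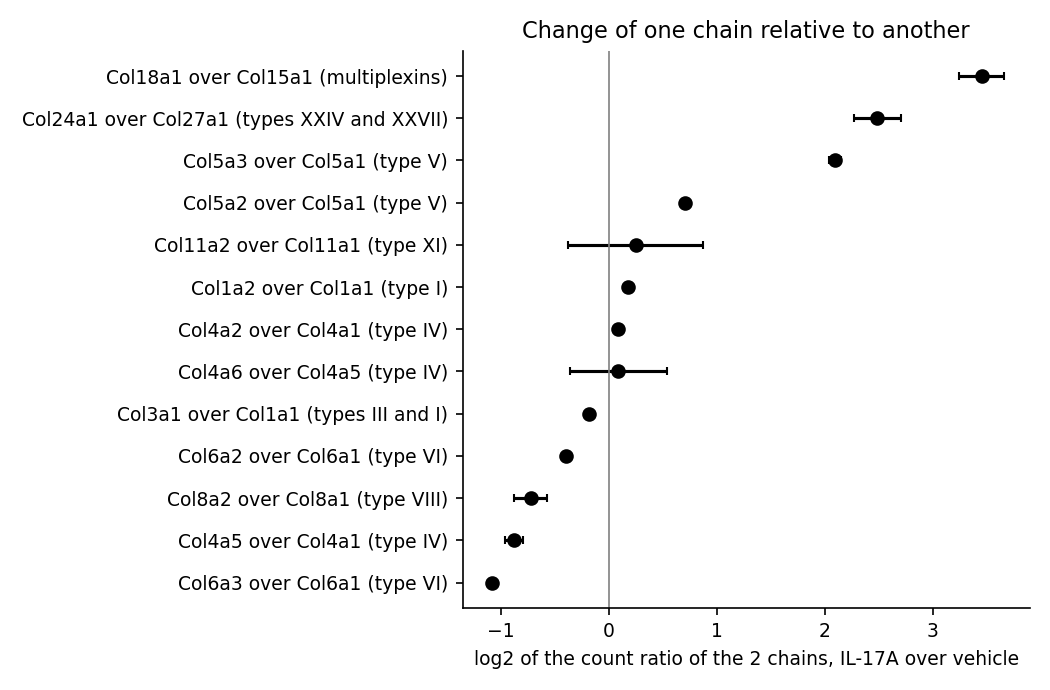
Log2 of the count ratio of a chain to another chain, IL-17A relative to vehicle, with 95% intervals for counting error. The points run from -1.08 for Col6a3 over Col6a1 to 3.45 for Col18a1 over Col15a1, and Col1a2 over Col1a1, Col4a2 over Col4a1 and Col4a6 over Col4a5 lie near 0.

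Several collagen genes are neighbours in the genome, and positions are given for GENCODE M21 on GRCm38 (mm10). Col4a1 (chromosome 8, 11198423 to 11312826) and Col4a2 (11312805 to 11449287) are transcribed away from each other, and their first exons overlap by 22 bases on opposite strands. Col4a6 (chromosome X, 141165403 to 141474076) and Col4a5 (141475385 to 141689234) also lie head to head, 1308 bases apart. Each of these pairs had like log2 ratios, -0.21 and -0.12 for Col4a1 and Col4a2, and -0.995 and -1.08 for Col4a6 and Col4a5. By contrast, chromosome 10 carries Col6a2 (76595762 to 76623630), Col6a1 (76708792 to 76726168) and Col18a1 (77052178 to 77166548) on the same strand, with log2 ratios of -0.93, -0.53 and 1.33. Col3a1 (chromosome 1, 45311538 to 45349706) and Col5a2 (45374321 to 45503282) end towards each other and had log2 ratios of -0.82 and -0.18.

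The windows on both sides of the Col4a6 and Col4a5 start sites are printed because both genes were near the 2-fold limit in the same direction and lie back to back, with capitals as above and also for a C/EBP motif (TTGCNNAA).
Col4a6, chrX:141474077-141474326, minus strand: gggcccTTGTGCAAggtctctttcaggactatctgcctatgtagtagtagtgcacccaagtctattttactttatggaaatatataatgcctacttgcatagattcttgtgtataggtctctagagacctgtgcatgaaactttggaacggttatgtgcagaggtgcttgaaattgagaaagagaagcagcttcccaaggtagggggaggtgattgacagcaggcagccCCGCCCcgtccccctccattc
Col4a5, chrX:141475169-141475384, plus strand: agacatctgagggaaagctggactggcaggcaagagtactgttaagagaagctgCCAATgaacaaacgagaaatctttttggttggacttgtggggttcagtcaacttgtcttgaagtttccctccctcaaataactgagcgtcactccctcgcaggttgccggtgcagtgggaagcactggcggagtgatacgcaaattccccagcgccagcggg
The Col4a6 window held a C/EBP match and a GC box on the opposite strand, and the Col4a5 window a CCAAT box. The GC box of Col4a5 lies in the stretch that was trimmed because annotated exons begin there.

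RefSeq windows of 250 bases before the start were at hand for 26 of the 31 measured chains and for 9812 measured genes in all, and each motif was searched on both strands. A GC box was found for 19 of 26 chains (73.1%) and for 65.4% of measured genes, and a CCAAT box for 11 chains (42.3%) and 40.9%. Of the chains with a window, the CCAAT box was present in 4 of 6 higher, 1 of 7 lower and 6 of 13 within 2-fold. The GC box was present in 5 of 6 higher, 4 of 7 lower and 10 of 13 within 2-fold. These groups are small, and a link of either motif to the calls was not tested. The motif GGGANTTTC of NF-kB sites was in 0 of 26 chains and 0.917% of measured genes, the AP-1 motif TGANTCA in 1 (Col6a1) and 5.51%, the C/EBP motif in 2 (Col4a6 and Col6a2) and 8.71%, and the TATA box TATAAA in 2 (Col11a2 and Col3a1) and 7.88%. A match is a description of these letters, and its absence refers to these windows only.

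Genes that process or read collagen were listed by role, and the counts past 2-fold below stand beside 5.19% of all measured genes higher and 3.69% lower. Chain modification and folding had 19 measured genes, of which 1 was higher and 0 lower, and their median log2 ratio was 0.15. The higher one was P4ha2, a prolyl hydroxylase subunit that stabilises the helix, at 14052 counts with IL-17A and 5284 with vehicle, 2.89-fold higher (95% counting interval 2.80 to 2.98). Of 12 genes that trim propeptides or cross-link fibrils, 0 were past 2-fold in either direction, and the median log2 ratio was 0.25. Nearest to the limit was Bmp1, at 24524 counts with IL-17A and 13659 with vehicle, 1.95-fold higher (1.91 to 1.99). Collagen breakdown and uptake had 6 of 14 genes higher and 3 lower, and a median log2 ratio of 0.41. The gelatinase Mmp9 had 29063 counts with IL-17A and 754 with vehicle, the collagenase Mmp13 7125 and 424, and the collagenase Mmp8 618 and 75. Mmp1b, at 109 and 6 counts, has a close copy in the genome and is uncertain. The gelatinase Mmp2 had 45097 counts with IL-17A and 18249 with vehicle, and Timp1, an inhibitor of these proteases, 16245 and 5246. The lower members were Timp3, a matrix-bound inhibitor, at 7815 counts with IL-17A and 28046 with vehicle, 3.30-fold lower, the protease Fap at 54 and 137, and the membrane-type protease Mmp15 at 71 and 172.

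Among 9 measured collagen receptors 1 was higher and 2 lower, beside the same 5.19% and 3.69% of all measured genes, and the median log2 ratio was -0.25. Of the integrin chains that bind collagen, Itga2 had 62 counts with IL-17A and 17 with vehicle. The far more abundant Itga11 had 11667 counts with IL-17A and 25013 with vehicle, 1.97-fold lower, and Itga1 had 861 and 941. Cspg4, a proteoglycan that binds type VI collagen, had 1070 counts with IL-17A and 2908 with vehicle, and the type III collagen receptor Adgrg1 had 19 and 43. Of 11 fibril partners, 2 were higher and 2 lower, and the median log2 ratio was -0.07. Dcn, a proteoglycan that coats fibrils, had 96320 counts with IL-17A and 17022 with vehicle, and Thbs2, a matricellular protein, had 122353 and 59253. The fibril proteoglycan Fmod had 4609 counts with IL-17A and 12217 with vehicle, and the tenascin Tnxb 105 and 294.

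All 8 fibroblast markers were measured, and they summed to 11228 CPM with IL-17A and 7938 CPM with vehicle. Dcn alone held 4186 CPM with IL-17A and 681 CPM with vehicle, so the higher sum came from this gene. Of the 8 markers, 2 were higher, Dcn and Twist2, the latter at 10423 counts with IL-17A and 5088 with vehicle, and 0 were lower. The others had log2 ratios from -0.59 (Vim) to 0.72 (Prrx1), with Pdgfra at -0.06. Markers of other cells were also read, and the calls on all marker lists stand beside 5.19% of all measured genes higher and 3.69% lower. The 7 mural and smooth muscle markers summed to 3820 CPM with IL-17A and 4899 CPM with vehicle. Acta2 held 3699 and 4596 CPM of these sums and was 1.24-fold lower. Of 6 measured, 0 were higher and 3 lower, and none of the list was at 0. The lower ones were Myh11 at 135 counts with IL-17A and 1101 with vehicle, Notch3 at 167 and 692, and Cspg4 as given above. Mcam was 1.91-fold lower and Des 1.27-fold lower. The 8 immune markers summed to 271 CPM with IL-17A and 197 CPM with vehicle, mostly from Lyz2 at 5227 and 3836 counts, with 0 of 7 measured past 2-fold and Cd3e at 0 in both libraries. Keratinocyte markers summed to 4.13 CPM with IL-17A and 3.28 CPM with vehicle, with Krt1 at 0, and endothelial markers to 6.52 and 6.96 CPM with none at 0 and 1 of 3 measured lower (Tek, 18 and 49 counts). The melanocyte and Schwann list summed to 49.0 and 30.7 CPM with Tyr at 0, and the chondrocyte and osteoblast list, of which 4 of 8 were in the table, to 25.7 and 45.7 CPM with 1 of 2 measured lower (Sox9, 175 and 392 counts). The part of these markers in the collagen differences was not tested.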

How the data were processed

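RNA was taken from 2 fibroblast cultures and sequenced from stranded mRNA libraries, per the labels' protocols. Reads were handled with STAR and featureCounts on mm10, per the submitters' processing notes. Versions, annotation, strand setting and the handling of multiply aligned reads were not given in the sources used here. Whole-number counts for each gene symbol were deposited, without normalization by the authors. Reads of genes that overlap on opposite strands, and of genes with close copies, may be shared or dropped. For the measured chains the largest opposite-strand exon overlap with 1 gene covered 1.90% of the exons (Col6a4).

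TMM and upper-quartile scaling were done with edgeR 4.0.16 and alternative size factors with DESeq2 1.42.0 (R 4.3.3), and the ratios and intervals were computed in Python 3.11.15 with SciPy 1.17.1. With 1 library per group no test can be made, so differences are described by the ratio of scaled counts, a minimum of 50 summed counts and a limit of 2-fold. The scripts were tested on simulated data with known folds. Length was that of the APPRIS principal transcript in GENCODE M21, matched by symbol for all 39 collagen genes. Promoter windows are RefSeq's, and printed stretches stop where an annotated exon begins. All measured chains are named. Of each list of pathway genes, up to 4 members past 2-fold with the largest ratio are named by rule, and other genes named from the pathway and marker lists were picked with their values in view. The members and the lists were chosen with earlier results of these data known. Other scalings, minimums, limits and a prior count were tried.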

Additional observations from a re-analysis of the deposited data

How the results depend on the processing

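The calls depended mainly on where the limit was set. With a limit of 1.5-fold, 8 chains were higher and 13 lower, and with 3-fold 2 were higher and 4 lower, beside 7 and 7 at 2-fold. Scaling by total counts, upper quartile or DESeq2 size factors, minimums of 10 and 200 counts, no minimum and a prior count of 2 gave 5 to 7 chains higher and 6 to 9 lower. Col23a1 fell short of 2-fold at 0.99 under total-count scaling, and Col4a6 passed 2-fold at -1.06 with total counts and at -1.03 with the upper quartile, and no measured chain changed sign under the scalings or the prior count. Under total-count scaling 14 of 31 chains moved outside their counting intervals, and 11 did so under the upper quartile. The log2 ratio of the summed collagen level, -0.53, was -0.59 when total counts were used, -0.57 with the upper quartile, and -0.58 as a share without the 10 most abundant other genes. It was -0.48 without Col1a1 and Col1a2, an alternative chosen after seeing the data, as were leaving out Col6a3 and the merged exon length. No paired analysis was possible because each group held 1 library. For chains with under 100 counts in a library, such as Col22a1, Col6a4 and Col9a2, depth left wide intervals. Leaving out a replicate could not be done with 1 library per group.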
